A study of Mus musculus with 18 samples.

Results

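The comparison asked where the transcriptional response to donor T cells differed between the liver and one intestinal epithelial fraction of the same transplanted mice. It used 12 of the 18 libraries, those whose sample descriptions carry the codes LIV (bulk liver) and LI (isolated intestinal epithelium), with 3 libraries in each of 4 groups. For each gene the log2 fold change of mice given T cells over mice given none was taken in both tissues, and the value in LI was subtracted from the value in liver. A positive difference therefore means a higher T cell effect in liver, through a rise in liver, a fall in LI, or both. Of 53379 genes in the count table, 12459 passed the filter on low counts in both tissues and were tested.

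All recipients were lethally irradiated female BALB/cJ mice aged 6 to 8 weeks, and tissue was taken on day 7. The BM groups received 10000000 bone marrow cells alone. The BMT groups received 10000000 bone marrow cells together with 1000000 T cells, so irradiation and marrow are shared by every group, and the strain of the donors is not named in the labels. The descriptions repeat 6 numbers, read here as mouse numbers, in each tissue, which gave 3 BM mice and 3 BMT mice, each with a liver and an LI library. The labels do not say outright that these numbers are animals, and if they are not, the p values describe technical spread.

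The titles of the 6 LI libraries call them small intestine, while their code reads LI. Levels are given as CPM, which are counts of a gene per 1000000 counts in the 12459 tested genes of a library, with 1 set of TMM factors over the 12 libraries. All 14 colon epithelium markers checked had a mean of at least 1 CPM in both LI groups, and the summed level of these markers was 17703 to 18471 CPM in the BM libraries. Among them, Car1 stood at 8561 to 9364 CPM and Hoxb13 at 127 to 157 CPM in LI of BM mice. Of 13 small intestinal markers, 10 had a mean of at least 1 CPM in LI of BM mice, and the list summed to 527 to 563 CPM there. Among them Sis was at 1.25 to 3.14 CPM and Lyz1 at 0.498 to 4.73 CPM in the same libraries. Other markers of that list were higher there, with Slc10a2 at 66.9 to 73.1 CPM and Anpep at 22.7 to 41.4 CPM. The colon markers go against the title, so the tissue is called LI throughout. Albumin (Alb) was at 115097 to 226021 CPM in livers of BM mice and at 0.831 to 1.62 CPM in their LI libraries.

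Graft-versus-host disease arises when donor T cells recognise the recipient's tissues. Activated T cells release interferon gamma, which acts through the kinases JAK1 and JAK2 to switch on antigen presentation and chemokine genes in the cells they contact. The acute phase proteins that hepatocytes secrete into blood are induced by other cytokines, above all interleukin 6 acting through STAT3. Colonic epithelium is a renewing sheet that absorbs water, salts and fatty acids and exports antibodies to the lumen.

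The promoters of genes on both sides of the comparison hold the letters of these 2 kinds of response element, and they are shown because interferon genes had lower and acute phase genes higher effects in liver. Each run is the 5′ to 3′ gene strand upstream of the gene start from RefSeq (GRCm38.p6), with matches in capitals. The interferon-stimulated response element core, bound by IRF and STAT complexes, was searched as GAAA, any 2 bases and GAAA again, or its reverse complement, and is in capitals in the first 5 runs. The motif TTCNNNGAA is the form bound by STAT dimers, including those of STAT3, may overlap the other motif, and is in capitals in the last 4 runs.
Isg15 (chr4:156200845-156200914, minus strand): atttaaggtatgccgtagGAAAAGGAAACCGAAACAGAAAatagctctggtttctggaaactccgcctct
Ifit1 (chr19:34640774-34640843, plus strand): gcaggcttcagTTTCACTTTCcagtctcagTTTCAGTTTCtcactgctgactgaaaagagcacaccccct
Rsad2 (chr12:26456533-26456602, minus strand): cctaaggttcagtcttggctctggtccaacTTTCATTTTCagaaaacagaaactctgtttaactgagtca
Cxcl10 (chr5:92349063-92349132, minus strand): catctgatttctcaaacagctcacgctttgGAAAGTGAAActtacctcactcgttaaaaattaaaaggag
B2m (chr2:122147518-122147587, plus strand): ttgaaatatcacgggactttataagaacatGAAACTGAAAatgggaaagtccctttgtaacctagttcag
Irf1 (chr11:53769894-53769962, plus strand): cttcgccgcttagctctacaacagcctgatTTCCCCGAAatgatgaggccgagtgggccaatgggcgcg
Icam1 (chr9:21015868-21015936, plus strand): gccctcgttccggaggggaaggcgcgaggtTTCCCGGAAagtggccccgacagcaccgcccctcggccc
Socs3 (chr11:117969482-117969550, minus strand): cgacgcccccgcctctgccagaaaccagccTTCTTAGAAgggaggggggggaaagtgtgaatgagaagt
Steap4 (chr5:7960326-7960394, plus strand): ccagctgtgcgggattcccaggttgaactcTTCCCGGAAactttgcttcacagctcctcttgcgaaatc

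In the first 7 of these genes the T cell effect was lower in liver than in LI, and in Socs3 and Steap4 it was higher. Within 250 bases upstream of the start, on either strand, the response element core was present in 12 of 16 interferon gamma response genes with a RefSeq promoter and in 9 of 19 type I interferon genes. The share over all 27025 RefSeq promoters was 3.04%, and over those of 9191 tested genes it was 2.7%. TTCNNNGAA was present in 7 of 16 interferon gamma response promoters, 1 of 8 acute phase promoters and 7.18% of all promoters. The capitals in Irf1 and Icam1 are thus the same motif as those in Socs3 and Steap4, whose differences had the opposite sign. The gene model counted for Socs3 starts at position 117970047 on the minus strand. The run shown for Socs3 is upstream of the RefSeq start but lies inside that model.

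Total counts ranged from 19632544 to 25610937 per library, so depth was similar in all 4 groups. The share of counts from the mitochondrial chromosome was 4.22 to 5.26% in livers of BM mice, 2.77 to 3.08% in livers of BMT mice, 9.72 to 10.7% in LI of BM mice and 6.24 to 7.46% in LI of BMT mice. It moved with treatment in both tissues, and its part in single results was not tested, while leaving those genes out before scaling gave 1724 genes higher and 1276 lower. In 1 liver library, BM replicate 3, many interferon and antigen presentation genes stood above the other BM livers, with the chemokine Cxcl9 at 3157 CPM against 45.3 and 275 CPM. The column names of the count table place that library, liver BMT replicate 2 and LI BMT replicate 3 on lane L001 and the other 9 on lane L002, and lane L001 holds no LI library of a BM mouse. On lane L002 alone, without the mouse term, 1832 genes were higher and 1438 lower.

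More genes passed the test of BMT against BM in LI than in liver. Of the genes tested in each tissue alone with edgeR's quasi-likelihood test at an adjusted p of 0.05, 1055 of 14134 rose (7.46%) and 473 fell (3.35%) in liver, against 3033 of 14880 that rose (20.4%) and 3124 that fell (21%) in LI, together 10.8% in liver and 41.4% in LI. Over the 12459 genes tested for the difference, the background for the list counts below, 6.77% rose and 3.04% fell in liver, and 20.2% rose and 20.7% fell in LI. With 1 mouse left out, the number rising in liver was 463 to 1526 and the number falling was 111 to 1049, the highest of both without BM replicate 3 and the lowest without BMT replicate 2. For the difference itself, 1705 of 12459 genes were higher in liver (13.7%) and 1296 were lower (10.4%), together 24.1%. These shares are the background for the counts of higher and lower effects in every list below. The counts of genes higher and lower were 1078 and 795 without BM replicate 2, 1054 and 791 without BMT replicate 1, and 988 and 759 without BMT replicate 2. The median absolute difference among the called genes was 1.41 on the log2 scale, while the median difference over all tested genes was 0.05. Across genes, which are not independent replicates, the effects in the 2 tissues had a Pearson correlation of 0.43.

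Most called genes had a call in LI alone. Of the 1705 with a higher effect in liver, 1143 had fallen in LI with no call in liver, 188 passed in liver alone, 104 changed the same way in both tissues and 164 passed in neither. Of the 1296 with a lower effect in liver, 868 had risen in LI with no call in liver, 83 passed in liver alone, and 209 changed the same way in both tissues, 197 of them upwards. The 209 had median log2 fold changes of 1.95 in liver and 5.91 in LI. Opposite calls in the 2 tissues were found for 141 genes, of which 106 rose in liver and fell in LI and 35 fell in liver and rose in LI, and all 141 were called for the difference. For 5263 of the tested genes (42.2%) the 3 BM and 3 BMT within-mouse differences did not overlap. The share was 97.4% among the called genes. Those genes were picked by a test of the same differences, so the higher share gives no separate support.

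**Figure D1:**
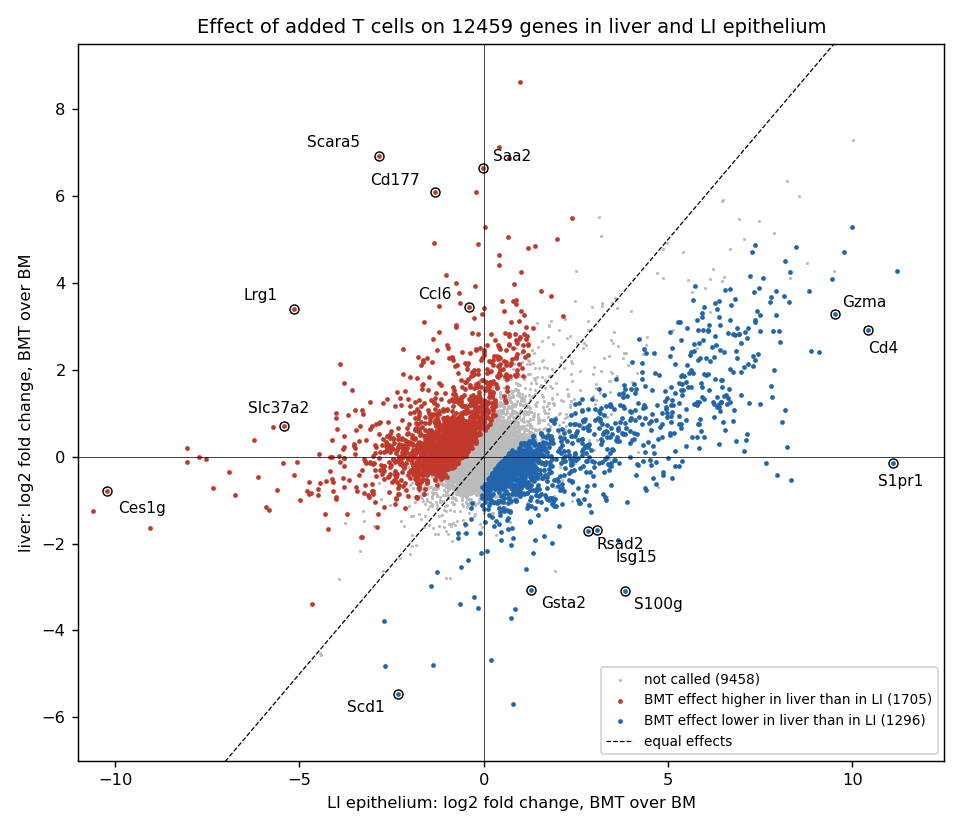
Log2 fold change of BMT over BM in LI epithelium (x axis) and in liver (y axis) for each of 12459 genes, with the 1705 genes whose effect was higher in liver in red, the 1296 whose effect was lower in blue, and the line of equal effects dashed. The red points spread up the axis where LI is near 0, as for Saa2, and left along the axis where liver is nearer 0, as for Ces1g, and a band of blue T cell genes runs to the right below the dashed line.

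T cell genes rose in both tissues and rose further in LI. Of 22 T cell receptor and surface genes, 20 were tested, 19 of them rose in liver and 20 in LI, and 14 had a lower effect in liver and 0 a higher one (edgeR, beside 10.4% and 13.7% of all genes). At an unadjusted p of 0.05 the counts were 16 lower and 0 higher, and DESeq2 also gave 14 and 0. Their median log2 fold changes were 3.77 in liver and 6.61 in LI, with a median difference of -3.01 against 0.05 over all genes. The summed level of the 22 genes was 18.2 to 22.4 CPM in livers of BM mice and 159.6 to 170.1 CPM in livers of BMT mice, against 10.9 to 13.7 CPM and 489 to 703 CPM in LI, where 3 of the 22 were at 0 in BM mice. In bulk samples, fewer cells of a type and less RNA per cell cannot be told apart.

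Cd4, the co-receptor of helper T cells, was at 1.13, 1.04 and 1.71 CPM in livers of BM mice and at 8.64, 10.2 and 11 CPM in livers of BMT mice. In LI it went from 0.0924, 0 and 0 CPM, which is 2 counts over 3 libraries, to 50.8, 40.7 and 40.0 CPM. The groups did not overlap in either tissue, and liver started above LI and ended below it. The difference was -7.42 ± 0.66 (SE) with an adjusted p of 8.32e-05, and the LI ratio of 1617-fold has a 95% counting interval of 8.80 to 13.71 on the log2 scale.

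Cd8a, which marks cytotoxic T cells, was not called for the difference. Its values were 0, 0.278 and 0.0633 CPM in BM livers, 9, 6.63 and 6.47 CPM in BMT livers, 0.139, 0.332 and 0.722 CPM in BM LI and 45.1, 37.5 and 28.1 CPM in BMT LI. The rise was 5.92 ± 0.57 in liver and 6.49 ± 0.38 in LI, and the difference of -0.53 ± 0.89 had an adjusted p of 0.705. Lck, the kinase that starts receptor signalling, likewise had a difference of 0.09 ± 0.29 (adjusted p 0.911) and was already at 3.93 to 5.27 CPM in BM LI. For Thy1, a T cell surface glycoprotein, the difference was -4.06 ± 0.32 (4.82e-05), and for Zap70, the receptor-proximal kinase, it was -5.14 ± 0.36 (2.99e-05). Cd5, which dampens receptor signalling, had 0 counts in BM LI and was at least 300.2-fold higher in BMT LI by a floor of 3 counts over the group. Its difference (-6.46 ± 1.18, adjusted p 0.00697) had an adjusted p of 0.131 without BM replicate 1.

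Cytotoxic and effector genes showed a wider gap. Of 24 listed, 20 were tested, 20 rose in LI and 17 in liver, and 16 had a lower effect in liver and 0 a higher one (18 and 0 at an unadjusted p of 0.05, 18 and 0 by DESeq2), with medians of 3.19 in liver and 7.42 in LI. Gzma, a granule protease, was at 0.986, 2.36 and 2.34 CPM in BM livers and 19.7, 16.4 and 20.2 CPM in BMT livers, against 0.508, 0.290 and 0.144 CPM in BM LI and 277, 191 and 201 CPM in BMT LI. Every BMT LI library thus stood above every BMT liver by a wide margin, and the difference was -6.17 ± 0.50 (5.46e-05). Nkg7, a granule membrane protein, differed by -3.50 ± 0.35 (0.000169). Gzmb and Prf1, the other main killing effectors, differed by -4.03 ± 0.55 (0.00085) and -4.15 ± 0.57 (0.000968). Ifng itself was at 1.16, 1.42 and 3.16 CPM in BMT livers and at 8.24, 8.30 and 5.27 CPM in BMT LI, from 0 to 0.507 CPM and 0 to 0.0722 CPM in the BM groups. Its difference was -4.97 ± 1.25 (0.0216), and its change in liver, 2.90 ± 0.77, had an adjusted p of 0.0512.

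Among 12 tested genes of T cell homing and adhesion, 9 had a lower effect in liver and 0 a higher one (9 and 0 also at an unadjusted p of 0.05 and by DESeq2). Selplg, the ligand of selectins, rose in both tissues and differed by -4.03 ± 0.28 (2.99e-05), and Itgal, a chain of the integrin LFA-1, differed by -5.59 ± 0.38 (2.8e-05). Some of these genes were already high in livers of BM mice. S1pr1, a receptor that lymphocytes and endothelium share, was at 91.2, 107 and 99.9 CPM in BM livers and at 78.2, 87.7 and 107 CPM in BMT livers, groups that overlap. In LI it had 0 counts in all 3 BM libraries and 14.7, 12 and 6.50 CPM in the BMT libraries, at least 278-fold higher. The fitted difference of -10.84 ± 0.88 (0.000184) depends on that group at 0. Of 17 endothelial genes, the summed level was 308 to 411 CPM in BM livers, 512 to 604 CPM in BMT livers, 9.56 to 10.9 CPM in BM LI and 47.9 to 74.1 CPM in BMT LI, with 4 genes at 0 in BM LI. Icam1, whose levels are given below, made up most of the sum in BMT LI, where 6 of the 17 genes reached a mean of 1 CPM. The part of endothelial cells in the S1pr1 result was not tested. Rasgrp2, an exchange factor for Rap1 in blood cells, differed by -7.0 ± 0.61 (7.51e-05), with 1 count in BM LI.

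**Figure D2:**
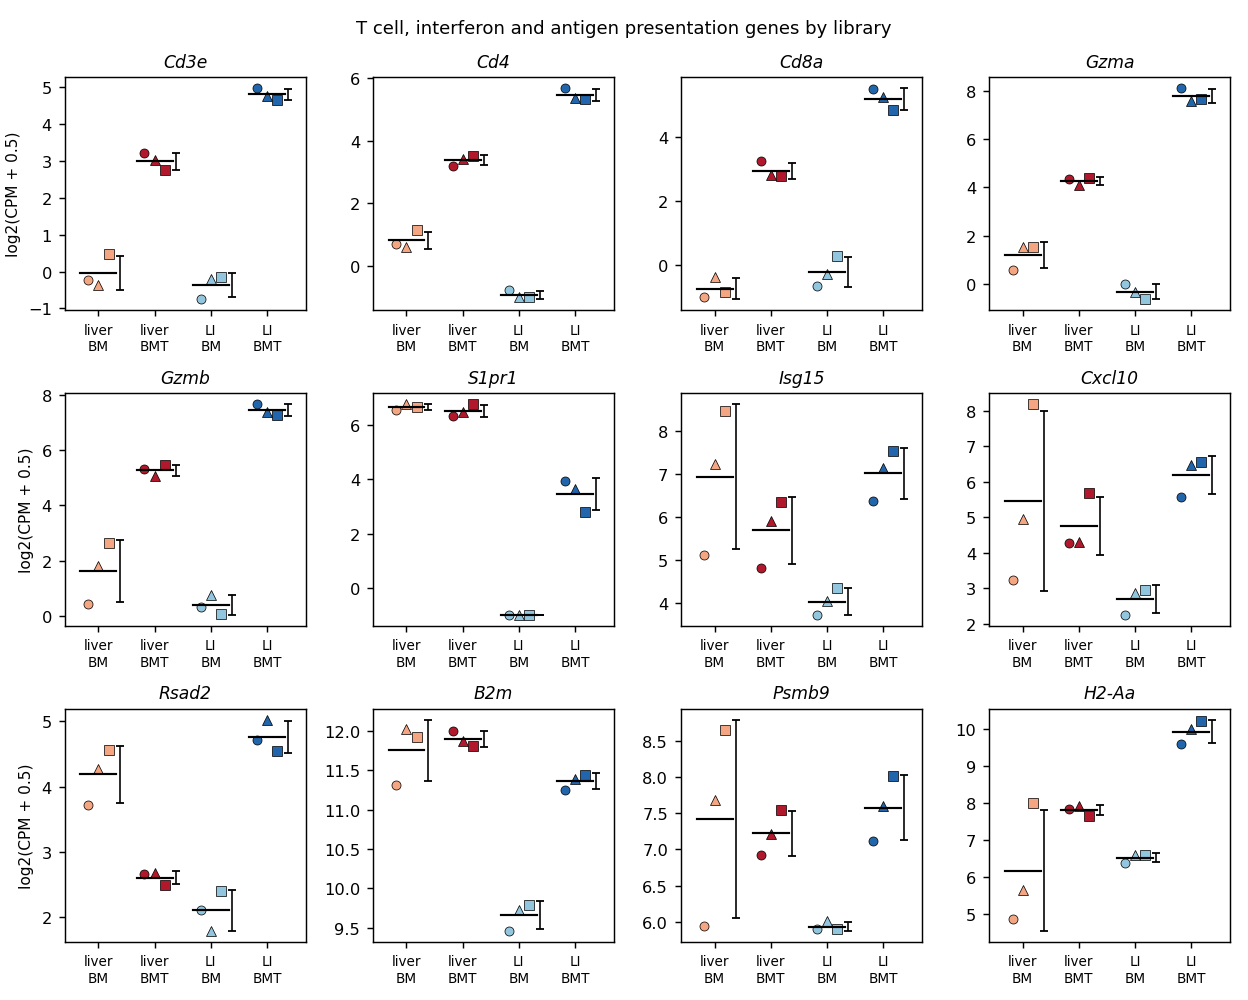
Level of 12 genes in each library as log2(CPM + 0.5), with circles, triangles and squares for replicates 1, 2 and 3 of a group, a line at the mean and a bar of 1 SD to its right. Cd3e, Cd4, Cd8a, Gzma and Gzmb rise in both tissues, while Isg15, Cxcl10, Psmb9 and H2-Aa spread widely over the 3 livers of BM mice and rise in LI.

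Interferon genes rose in LI, and none passed as higher in liver. Of 28 tested interferon gamma response genes, 28 rose in LI, 0 rose and 0 fell in liver, and 17 had a lower effect in liver and 0 a higher one (20 and 0 at an unadjusted p of 0.05, 16 and 0 by DESeq2). The medians were -0.61 in liver and 2.21 in LI. The livers of BM mice were already at high and unequal levels. The summed level of the list was 5940, 16387 and 27263 CPM in BM livers and 11133 to 14891 CPM in BMT livers, against 947 to 1143 CPM and 3457 to 5005 CPM in LI. The count was 16 without BM replicate 3, whose liver was the highest, 11 without BM replicate 2 and 10 without BMT replicate 2. It was 25 without BM replicate 1, while no low-count filter gave 26 and lane L002 alone gave 12. The median difference of -2.02 was -3.06 without BM replicate 1. Without BM replicate 3 it was -1.42, with 4 genes above 0, so its size depended on single BM mice.

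Cxcl10, the chemokine that draws Cxcr3-bearing T cells, was at 8.80, 30.5 and 291 CPM in BM livers and 18.7, 19.1 and 50.9 CPM in BMT livers. In LI it was at 4.20, 6.80 and 7.22 CPM in BM mice and 46.9, 87.9 and 92.5 CPM in BMT mice. The liver groups overlapped and the LI groups did not, and the difference was -4.36 ± 0.92 (0.00821). Nlrc5, the transactivator of MHC class I genes, was at 41.2, 60.3 and 66.8 CPM in BM livers and 64.3, 89.8 and 80.1 CPM in BMT livers, against 10.3 to 11.2 CPM and 53.1 to 66.9 CPM in LI. Its difference was -1.97 ± 0.24 (0.000456). Gbp10, an interferon-induced GTPase, was at 114, 275 and 516 CPM in BM livers and 39.9, 79.6 and 121 CPM in BMT livers, while LI went from 1.11 to 1.78 CPM to 1.69 to 5.32 CPM. Its difference of -3.13 ± 0.38 (0.000464) had an adjusted p of 0.0589 on lane L002 alone, and reads of the closely related Gbp genes may be shared. Irf1, a factor that carries the signal, differed by -1.30 ± 0.30 (0.0136), with a liver value of -0.43 ± 0.39 (0.540).

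The type I interferon list moved the same way. Of 25 tested, 21 rose in LI, 1 fell in liver (Rsad2), and 21 had a lower effect in liver and 0 a higher one (23 and 0 at an unadjusted p of 0.05, 21 and 0 by DESeq2), with medians of -0.56 in liver and 1.92 in LI. The count was 21 also without BM replicate 3, and 14 on lane L002 alone. Rsad2, the antiviral enzyme viperin, moved in opposite directions. It was at 12.7, 18.9 and 23.2 CPM in BM livers and fell to 5.81, 5.89 and 5.11 CPM in BMT livers, and it rose from 3.83, 2.95 and 4.80 CPM to 25.7, 32.1 and 22.8 CPM in LI. No group overlapped within a tissue, and the difference was -4.48 ± 0.29 (2.47e-05). Isg15, a ubiquitin-like modifier, was at 34.4, 150 and 349 CPM in BM livers and 27.7, 59.9 and 80.2 CPM in BMT livers, and at 12.7 to 19.9 CPM and 82.6 to 183 CPM in LI, a difference of -4.30 ± 0.56 (0.000703). Rtp4, an interferon-induced chaperone of receptors, differed by -2.38 ± 0.24 (0.00016). Ifitm1, a membrane protein that blocks viral entry, was at 9.86 to 22.5 CPM in BM livers and 20.8 to 21.7 CPM in BMT livers, and at 0.185 to 0.613 CPM and 44.0 to 58.7 CPM in LI, a difference of -6.63 ± 0.29 (1.01e-05).

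The signalling genes that receive cytokines were called in both directions, beside 13.7% higher and 10.4% lower over all genes. Of 24 tested, 5 had a higher effect in liver and 4 a lower one, with a median difference of 0.25. Those lower in liver included the interferon receptor chain Ifnar2, Stat2 and the tumour necrosis factor receptor Tnfrsf1b, and the count of 4 was 2 without the mouse term, without BM replicate 2 and without each BMT replicate. Those higher were Ifnlr1, Socs3, Il6ra, Il22ra1 and Il1r1, which bind or restrain interferon lambda, interleukin 6, interleukin 22 and interleukin 1. Il1r1 was at 90.1, 81.0 and 16.4 CPM in BM livers and 252, 423 and 154 CPM in BMT livers, and it fell from 22.9, 17.2 and 16.1 CPM to 0.902, 1.34 and 1.42 CPM in LI, a difference of 6.29 ± 0.62 (0.000158). Socs3, the feedback inhibitor of interleukin 6 signalling, rose from 13.2, 13.3 and 8.30 CPM to 28.6, 43.0 and 38.1 CPM in liver, while LI was at 26.0 to 53.3 CPM and 24.6 to 36.7 CPM, a difference of 2.03 ± 0.29 (0.00121). Stat3 and Ifngr1 had differences of 0.30 ± 0.25 (0.425) and 0.31 ± 0.22 (0.345).

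MHC class I genes, which present peptides to cytotoxic T cells, rose in LI with no call in liver. Of 22 tested genes, 20 rose in LI, 0 rose and 0 fell in liver, and 15 had a lower effect in liver and 0 a higher one (16 and 0 at an unadjusted p of 0.05, 16 and 0 by DESeq2). The count was 12 without BM replicate 3, but 7 without BM replicate 2, 8, 6 and 7 without BMT replicates 1, 2 and 3, and 7 on lane L002 alone. B2m, the invariant light chain, was at 2541, 4188 and 3886 CPM in BM livers and 4114, 3761 and 3585 CPM in BMT livers, and rose from 701, 847 and 883 CPM to 2435, 2697 and 2784 CPM in LI. The liver groups overlapped, and the difference was -1.57 ± 0.28 (0.00362). Psme2, a subunit of the interferon-induced proteasome activator, differed by -1.50 ± 0.26 (0.00314), and H2-T24, a nonclassical class I gene, by -2.89 ± 0.30 (0.00021).

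The proteasome subunits that cells use at all times moved the same way by smaller amounts. Of 14 tested, 13 had a lower effect in liver and 0 a higher one (13 and 0 at an unadjusted p of 0.05 and by DESeq2), 11 rose in LI and 2 fell in liver, with medians of -0.33 and 0.56. Psma5, an outer ring subunit, was at 105, 126 and 180 CPM in BM livers and 97.3, 97.1 and 88.9 CPM in BMT livers, and rose from 72.3, 84.7 and 92.6 CPM to 160, 146 and 152 CPM in LI, a difference of -1.38 ± 0.19 (0.00108). Psmb3, an inner ring subunit, differed by -0.99 ± 0.20 (0.0062). Leaving out any 1 mouse lowered the count to between 5 and 8, with the median difference between -0.83 and -0.71.

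MHC class II genes gave 1 call, and it had the other sign. Of 9 tested, 8 rose in LI and 1 in liver, and the median difference was -1.56, yet 0 had a lower effect in liver and 1 a higher one (2 and 1 at an unadjusted p of 0.05, 0 and 1 by DESeq2, 1 and 1 by limma voom). The exception, Ctss, a lysosomal protease that trims the invariant chain, rose from 32.9, 48.3 and 58.3 CPM to 129, 118 and 120 CPM in liver and was at 139 to 167 CPM and 166 to 184 CPM in LI, a difference of 1.24 ± 0.21 (0.00288). H2-Aa, the alpha chain of the I-A molecule, was at 28.6, 49.3 and 256 CPM in BM livers and 229, 238 and 199 CPM in BMT livers, and rose from 82.5 to 95.3 CPM to 762 to 1173 CPM in LI. Its difference of -1.75 ± 0.65 had an adjusted p of 0.0786, 0.0178 without BM replicate 1, 0.0369 without the mouse term, 0.031 with all 18 libraries and 8.27e-08 with no low-count filter. The median difference was -0.43 without BM replicate 3 and -0.37 on lane L002 alone. Without BM replicate 1, 6 class II genes had a lower effect in liver, and 7 with no low-count filter, 3 without the mouse term and 2 with all 18 libraries.

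Acute phase genes rose in liver and, with few exceptions, not in LI. Of 26 listed genes, 9 reached the filter in both tissues. All 9 rose in liver, 2 rose and 1 fell in LI, and 7 had a higher effect in liver and 1, Serpina3n, a lower one. The medians were 2.35 in liver and -0.00 in LI. Saa1, serum amyloid A, rose from 56, 209 and 310 CPM to 13000, 12219 and 14310 CPM in liver, while LI held 358, 468 and 450 CPM in BM mice and 311, 295 and 491 CPM in BMT mice. The liver groups were far apart and the LI groups overlapped, and the difference was 6.65 ± 0.54 (5.61e-05). The neighbouring Saa2 and Saa3 differed by 7.08 ± 0.63 (8.32e-05) and 5.96 ± 0.69 (0.000351), and near-identical Saa copies may share reads.

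Other members added the metal-binding proteins Mt1 and Mt2, with differences of 2.38 ± 0.31 (0.000645) and 1.82 ± 0.33 (0.00385), and Steap4, a metalloreductase induced by interleukin 6, with 3.17 ± 0.35 (0.000285). Lbp, which hands bacterial lipopolysaccharide to Cd14, moved in opposite directions. It rose from 323, 354 and 434 CPM to 1630, 1814 and 1387 CPM in liver and fell from 5.27, 2.82 and 2.02 CPM to 0.863, 0.768 and 1.42 CPM in LI, a difference of 3.79 ± 0.50 (0.000727). Cd14 rose in liver from 5.84, 5.28 and 7.35 CPM to 53.8, 85.2 and 41.6 CPM and was at 31.9 to 33.6 CPM and 22 to 40.3 CPM in LI, a difference of 3.34 ± 0.36 (0.000248). Serpina3n, a protease inhibitor, rose from 1266, 1903 and 1290 CPM to 5988, 6207 and 4927 CPM in liver. In LI it had 2 counts in BM mice and 58 in BMT mice, a ratio of 29.3-fold with a 95% counting interval of 2.96 to 7.95 on the log2 scale, and the difference of -2.61 ± 0.66 (0.0185) rests on those counts. Its call was lost without BM replicate 2 and with all 18 libraries.

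Complement and clotting genes split. Of 9 tested complement genes, Cfb, a component of the alternative pathway, had a higher effect in liver, with a rise in liver, a fall in LI and a difference of 1.58 ± 0.27 (0.00296). C2 of the classical pathway had a lower one (-1.83 ± 0.40, 0.00938), as did C1s1 and C8g. C3, the central component, rose in both tissues, from 18190 to 20215 CPM to 54820 to 65963 CPM in liver and from 33.9 to 38.6 CPM to 145 to 457 CPM in LI, with a difference of -1.22 ± 0.50 (0.105). Of 9 tested clotting and fibrinolysis genes, 3 were higher in liver and 2 lower, and the 2 were 1 without BMT replicate 1 or 2 or BM replicate 2. Tfpi, the inhibitor of the tissue factor pathway, fell in LI and differed by 2.42 ± 0.48 (0.0064). Plat, the tissue plasminogen activator, rose in LI from 0.613 to 0.831 CPM to 6.68 to 23.9 CPM and differed by -3.46 ± 0.60 (0.00334).

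**Figure D3:**
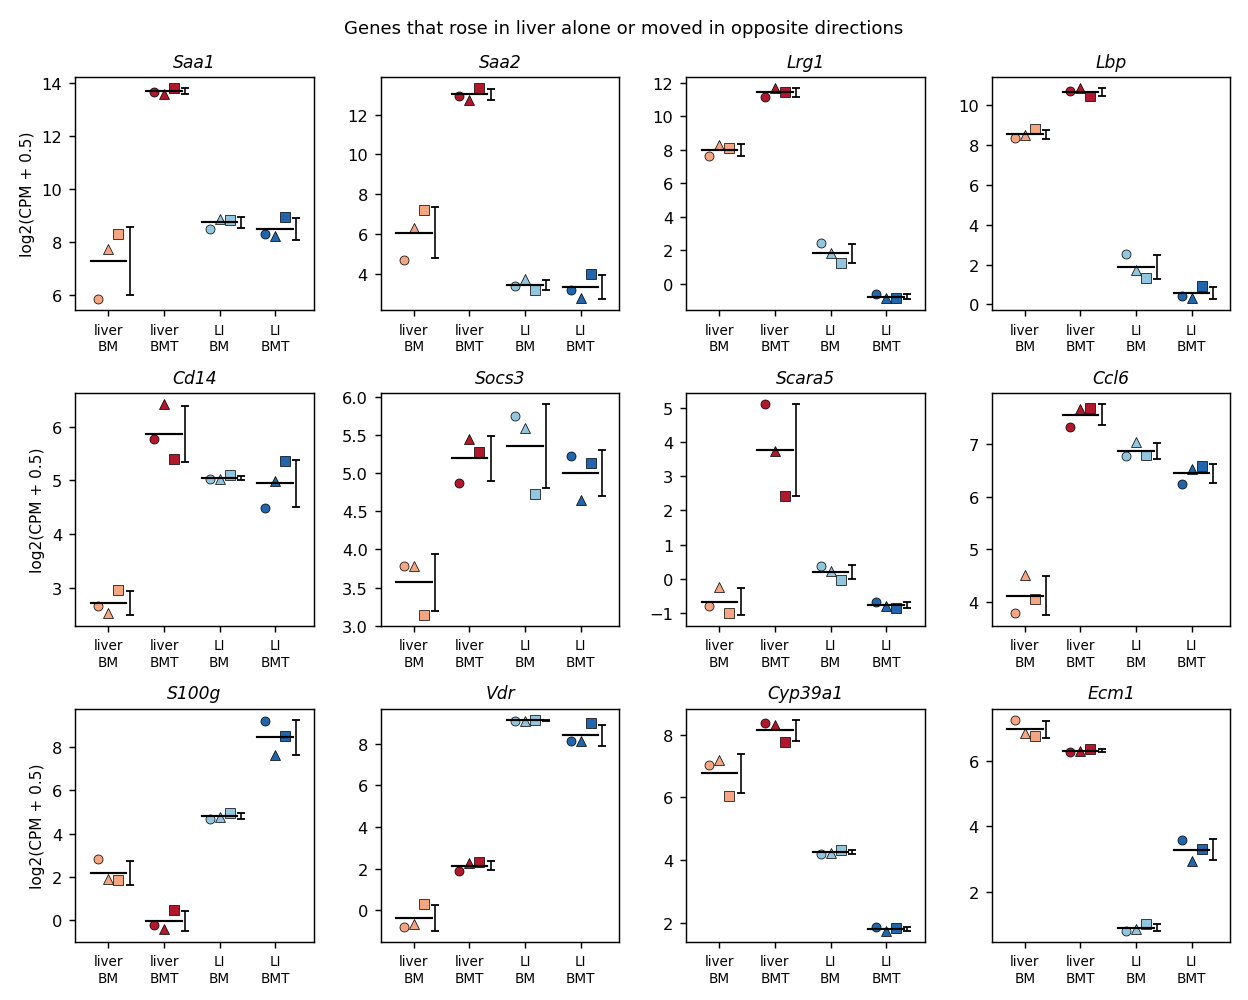
Level of 12 genes in each library as log2(CPM + 0.5), drawn as in the plot of immune genes. Saa1, Saa2, Cd14 and Socs3 rise in liver alone, Lrg1, Lbp, Scara5, Ccl6, Vdr and Cyp39a1 rise in liver and fall in LI, and S100g and Ecm1 fall in liver and rise in LI.

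Some genes that went in opposite directions had wide differences. Scara5, a ferritin receptor, was at 0.0704, 0.347 and 0 CPM in BM livers and rose to 34.5, 13.1 and 4.89 CPM in BMT livers, while it fell from 0.785, 0.664 and 0.469 CPM to 0.118, 0.0768 and 0.0475 CPM in LI, and the difference was 9.83 ± 0.76 (4.67e-05). Lrg1, a secreted glycoprotein of inflammation, rose from 195, 313 and 277 CPM to 2316, 3308 and 2771 CPM in liver and fell from 4.76, 2.99 and 1.84 CPM to 0.157, 0.0384 and 0.0475 CPM in LI. Its difference was 8.52 ± 0.66 (4.69e-05), and both tissues contributed. Cd177, a neutrophil surface protein that LI also held in BM mice, rose from 0.0633 to 0.486 CPM to 7.22 to 29.0 CPM in liver and fell from 92.4 to 137 CPM to 21.7 to 72.4 CPM in LI, a difference of 7.39 ± 1.07 (0.00121).

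S100g, the calcium carrier calbindin-D9k, showed the reverse. It fell from 6.62, 3.26 and 3.10 CPM to 0.363, 0.271 and 0.902 CPM in liver and rose from 25.0, 27.2 and 30.5 CPM to 595, 196 and 370 CPM in LI, a difference of -6.79 ± 0.51 (3.64e-05). Vdr, the vitamin D receptor, for which S100g is a textbook target, went the other way. Its level rose from 0.0704, 0.139 and 0.760 CPM to 3.19, 4.33 and 4.44 CPM in liver and fell from 550, 548 and 568 CPM to 277, 276 and 507 CPM in LI, a difference of 4.30 ± 0.54 (0.000576). Ecm1, a matrix protein, fell from 153, 116 and 109 CPM to 77.1, 79.5 and 81.8 CPM in liver and rose from 1.25 to 1.52 CPM to 7.18 to 11.5 CPM in LI, a difference of -3.40 ± 0.27 (5.46e-05).

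Neutrophil genes rose in both tissues. Of 18 listed, 7 were tested, all 7 rose in liver, and 6 rose and 1 (Cd177) fell in LI, with medians of 4.11 in liver and 4.86 in LI. Ltf (lactoferrin) and Cd177 had a higher effect in liver, but only Cd177 was called without BM replicate 1, BM replicate 2, BMT replicate 1 or BMT replicate 2. S100a9 and Mmp9 had a lower one, a count of 2 that was 0 without the mouse term, on lane L002 alone and without BM replicate 2, and 1 without BM replicate 1, BM replicate 3 or BMT replicate 1. The summed level was 22 to 35.9 CPM in BM livers, 296 to 1481 CPM in BMT livers, 166 to 207 CPM in BM LI and 629 to 1293 CPM in BMT LI. The LI sums rest on fewer genes. A mean of 1 CPM was reached by 2 of the 18 in BM LI and 8 in BMT LI, against 18 in BMT livers. Cd177 alone had a mean of 119 CPM in BM LI. S100a9, a subunit of calprotectin, was at 6.21 to 11.1 CPM in BM livers, 300, 107 and 60.5 CPM in BMT livers, 1 count in all of BM LI and 7.57, 1.77 and 0.997 CPM in BMT LI, with BMT replicate 1 the highest in both tissues. Its difference of -3.12 ± 0.72 (0.0127) rests on that 1 count. The mean within-mouse difference of log2(CPM + 0.5) had the other sign, at 1.21, and was -0.64 with a pseudocount of 0.1. The adjusted p of the fit was 0.317 without the mouse term, 0.296 on lane L002 alone and 0.0567 without BM replicate 2. For S100a8, the partner subunit, the difference was -0.29 ± 0.57 (0.747).

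Of 15 tested monocyte and macrophage genes, 13 rose in LI and 7 in liver, and 8 had a lower effect in liver and 2, Cd14 and C1qa, a higher one. C1qa fell in LI, from 10.5 to 13.2 CPM to 3.34 to 5.57 CPM, and differed by 1.97 ± 0.35 (0.00376). C1qb and C1qc, which code for the other chains of the same complement protein, rose in LI from below 1 CPM and were among the 8, at -2.78 ± 0.48 (0.00302) and -2.85 ± 0.67 (0.0140). The list summed to 688 to 1965 CPM in BM livers, 1822 to 1997 CPM in BMT livers, 49.3 to 53.7 CPM in BM LI and 104 to 171 CPM in BMT LI. Ccr2, the receptor that brings monocytes and effector T cells out of blood, differed by -3.68 ± 0.42 (0.000308), while Ly6c2, a marker of inflammatory monocytes, rose in both and differed by -0.57 ± 0.54 (0.478). The only Kupffer cell gene tested was the iron exporter Slc40a1, which enterocytes also express. It was at 220 to 462 CPM and 353 to 417 CPM in liver and fell from 107 to 127 CPM to 30.0 to 42.0 CPM in LI, a difference of 1.92 ± 0.32 (0.00254). Of 2 tested B cell genes, the immunoglobulin heavy chain Ighm differed by -3.71 ± 0.50 (0.000829) and the light chain Igkc by 1.17 ± 0.48 (0.103, and 0.0403 without BM replicate 1). The single erythroid gene tested, the globin Hbb-bs, fell in liver from 66.8 to 114 CPM to 8.85 to 34.7 CPM, with a difference of -0.61 ± 0.83 (0.636).

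Chemokines outside the Cxcr3 axis were lower in liver for 5 of 9 tested genes and higher for 2, Ccl6 and Cxcl1. Ccl7, which attracts monocytes, was at 1.41, 0.417 and 3.74 CPM in BM livers and 0.290, 0.812 and 3.16 CPM in BMT livers, with 1 count in BM LI and 1.88, 3.76 and 8.31 CPM in BMT LI. The difference was -8.52 ± 0.70 (5.78e-05), and the LI ratio of 325-fold has a counting interval of 5.86 to 13.65 on the log2 scale. Ccl6, a chemokine of the CC class, rose from 13.2, 22.3 and 16.0 CPM to 160, 202 and 207 CPM in liver and fell from 109, 132 and 110 CPM to 75.1, 91.3 and 95 CPM in LI, a difference of 3.91 ± 0.20 (1.31e-05). Cxcl1, which recruits neutrophils, rose in liver and differed by 1.36 ± 0.35 (0.0209), a call lost without BMT replicate 1 or 2 or BM replicate 3, without the mouse term and on lane L002 alone.

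Of 17 endothelial genes, 5 were tested, and 3 had a lower effect in liver (Icam1, Icam2 and Vcam1) and 1 a higher one. Icam1, an adhesion molecule induced by interferon gamma, was at 18.2, 21.1 and 71.4 CPM in BM livers and 44.4 to 55.0 CPM in BMT livers and rose from 4.33 to 6.72 CPM to 35.7 to 65.4 CPM in LI, a difference of -2.57 ± 0.52 (0.00709). Icam2, expressed on endothelium and leukocytes, had 0 counts in BM LI and was at least 25.0-fold higher in BMT LI, with a fitted difference of -7.51 ± 0.84 (0.000785). Lyve1, of lymphatic and sinusoidal endothelium, rose in liver and differed by 2.69 ± 0.53 (0.00625). Of 10 tested fibroblast and collagen genes, the 2 chains of type I collagen, Col1a1 and Col1a2, had higher effects in liver, by 2.55 ± 0.59 (0.0126) and 1.83 ± 0.39 (0.00916), and the adjusted p of Col1a1 was 0.0536 without BMT replicate 2.

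**Figure D4:**
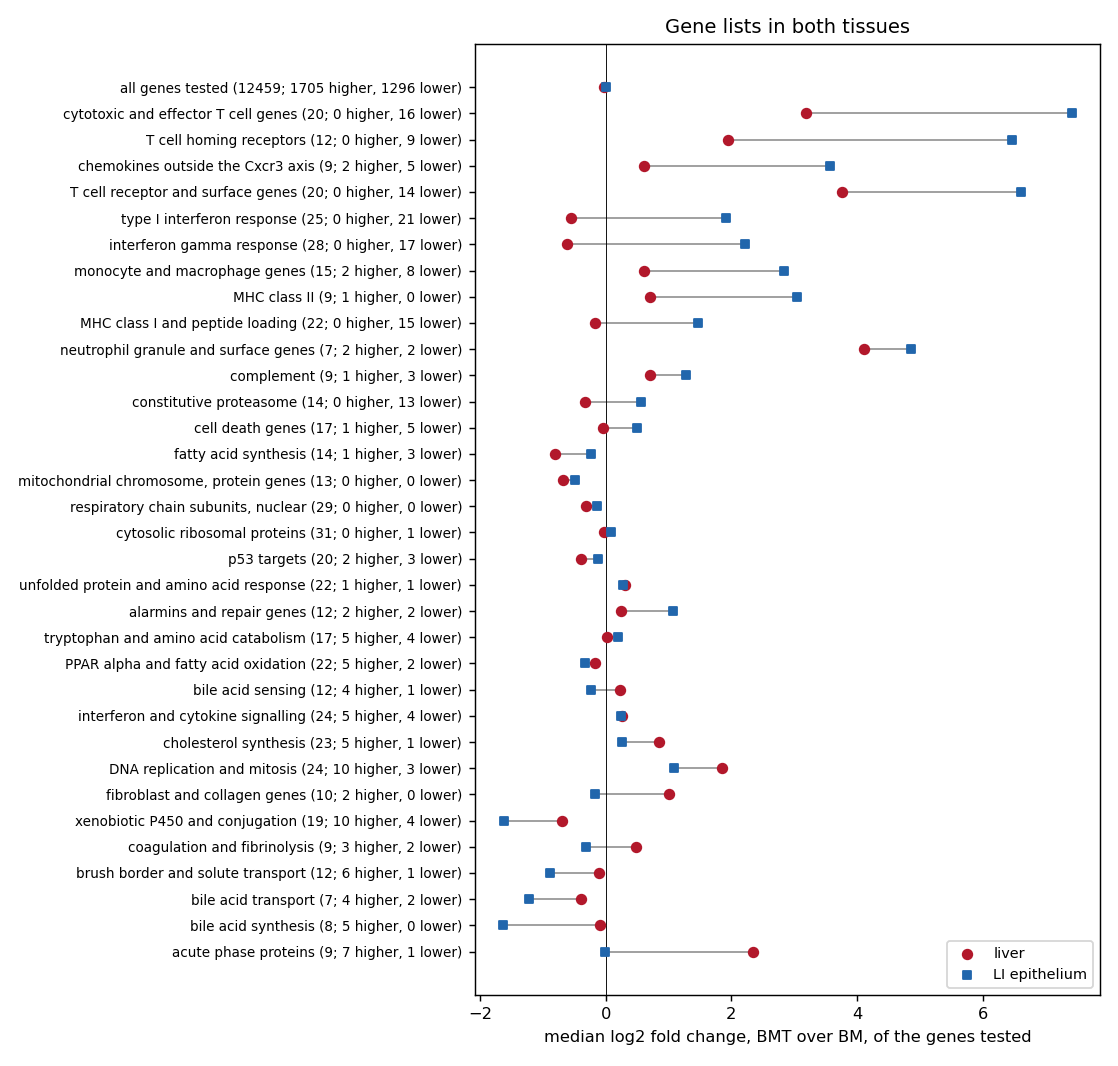
Median log2 fold change of BMT over BM in liver (red circles) and LI epithelium (blue squares) for each list with at least 7 tested genes, ordered by the median difference, with the number tested and the numbers with a higher and a lower effect in liver after each name. The 2 interferon response lists, MHC class I and the proteasome lie left of 0 in liver and right of 0 in LI, and acute phase proteins lie at 2.35 in liver and -0.00 in LI.

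A number of metabolic and secreted proteins had a higher effect in liver together with a fall in LI. Ces1g, a carboxylesterase that acts on lipids, fell from 777, 1008 and 680 CPM to 464, 533 and 436 CPM in liver and from 167, 132 and 176 CPM to 0.118, 0.0384 and 0.237 CPM in LI. The fall in LI was by far the deeper, and the difference was 9.46 ± 0.48 (1.31e-05). The related Ces1d had 3 counts in BMT LI and a difference of 9.41 ± 0.70 (3.64e-05), and the paralogous Ces1 genes may share reads. Cyp4b1, a cytochrome P450, was at 8.80 to 12.2 CPM and 11.3 to 13.1 CPM in liver and fell from 21 to 26.1 CPM to 0 to 0.157 CPM in LI, a difference of 8.29 ± 0.45 (1.56e-05). Itih2, a hyaluronan-binding plasma protein, had 308 counts in BM LI and 1 in BMT LI and differed by 7.70 ± 0.84 (0.000267).

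Of 19 tested xenobiotic genes, 15 fell in LI and 10 fell in liver, and 10 had a higher effect in liver and 4 a lower one. The medians were -0.70 in liver and -1.62 in LI, and 0 rose in either tissue. Cyp2f2 was at 778 to 1213 CPM and 676 to 1063 CPM in liver, groups that overlap, and fell from 12.8, 19.1 and 17.0 CPM to 0, 0.0768 and 0.0949 CPM in LI, a difference of 7.92 ± 0.49 (2.47e-05). Gsta3, a glutathione transferase, fell in both and differed by 3.07 ± 0.29 (0.000137). Gsta2, a paralogue outside the list, went the other way, falling from 75.5, 73.0 and 75.4 CPM to 14.1, 6.97 and 5.64 CPM in liver, with 0.0924 to 0.290 CPM and 0.461 to 0.706 CPM in LI and a difference of -4.33 ± 0.43 (0.000163). The 4 list genes lower in liver were Cyp2c55, Gsta1, Gsta4 and Gstm3, and this count was 2 without the mouse term and on lane L002 alone and 1 with all 18 libraries. Outside the list, a further pair fell in liver alone, the keratin Krt23, by 4.69 ± 0.88 on the log2 scale with a difference of -4.47 ± 0.83 (0.00466), and Prom1, a membrane glycoprotein of progenitor and bile duct cells, from 41.9 to 70.1 CPM to 1.76 to 8.57 CPM with a difference of -3.44 ± 0.43 (0.000561).

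Bile acids are made from cholesterol in hepatocytes, exported into bile and taken back up in the gut, and several steps were measurable in both tissues. Of 8 tested synthesis genes, 7 fell in LI and 2 rose in liver, and 5 had a higher effect in liver and 0 a lower one (7 and 0 at an unadjusted p of 0.05, 6 and 0 by DESeq2). Cyp39a1, the oxysterol hydroxylase, rose from 132, 147 and 66.0 CPM to 331, 317 and 218 CPM in liver and fell from 18, 18.3 and 19.6 CPM to 3.10, 2.80 and 3.04 CPM in LI, a difference of 4.03 ± 0.35 (7.96e-05). Acox2, which shortens the side chain in peroxisomes, rose in liver from 354 to 370 CPM to 489 to 624 CPM and fell in LI from 3.97 to 5.68 CPM to 1.27 to 1.33 CPM, a difference of 2.50 ± 0.25 (0.000158). Cyp27a1, a mitochondrial sterol hydroxylase, was at 280 to 484 CPM and 379 to 497 CPM in liver and fell from 10.2 to 11.2 CPM to 1.49 to 4.32 CPM in LI, a difference of 2.48 ± 0.46 (0.00474).

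The transport genes were less settled. Of 7 tested, 4 had a higher effect in liver (Slc10a2, Slco2b1, Abcc3 and Abcb1a), but leaving out 1 mouse lowered that count to between 0 and 2, and it was 1 without the mouse term and 2 on lane L002 alone or with all 18 libraries. Slc51b, a subunit of the basolateral exporter, was at 6.73 to 13.7 CPM and 6.31 to 8.87 CPM in liver and rose from 27.8, 31.0 and 31.3 CPM to 101, 89.3 and 110 CPM in LI, a difference of -2.05 ± 0.28 (0.000844). Abcc3, another exporter, differed by 1.03 ± 0.31 (0.0377), with an adjusted p of 0.0551 to 0.127 in 5 of the 6 fits that left out a mouse. Slco2b1, an uptake carrier, differed by 1.21 ± 0.31 (0.0212, and 0.0981 without the mouse term), and Slc10a2, the sodium-dependent uptake carrier, by 1.39 ± 0.42 (0.0388, with 0.168 without the mouse term and 0.302 on lane L002 alone).

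Of 12 tested sensing genes, 4 had a higher effect in liver and 1, the receptor S1pr2, a lower one, a call lost without BM replicate 1 and without each BMT replicate. Nr1h4, the bile acid receptor FXR, was at 131, 198 and 135 CPM in BM livers, 204, 240 and 174 CPM in BMT livers, 83.3, 106 and 98.9 CPM in BM LI and 141, 130 and 124 CPM in BMT LI. It rose in LI by 0.48 ± 0.14 (0.0167), the liver value was 0.41 ± 0.20 (0.253), and the difference was -0.03 ± 0.21 (0.935). Nr1i3, the xenobiotic receptor CAR, fell in LI from 1.23 to 1.43 CPM to 0.427 to 0.499 CPM and differed by 1.84 ± 0.27 (0.00123). The sterol exporter Abcg5 differed by 1.14 ± 0.58 (0.181). Cyp7a1, Cyp8b1, Cyp7b1, Nr0b2, Slc51a and Abcc2 did not pass the filter in both tissues, and no difference was tested. Cyp7a1, which carries out the committed step from cholesterol to bile acids, was at 20.2, 309 and 275 CPM in BM livers and 81.1, 182 and 337 CPM in BMT livers and had 0 counts in every LI library.

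Of 23 tested cholesterol synthesis genes, 17 had a difference above 0, with a median of 0.56 against 0.05 over all genes, and 5 had a higher effect in liver and 1 (Pmvk) a lower one. The lower count was 0 without BMT replicate 1 or 3 or BM replicate 2 and 3 without BM replicate 3. The count of 5 was 2 without BMT replicate 1 or 2, 3 without the mouse term, and 8 by DESeq2, without BM replicate 2, on lane L002 alone and with all 18 libraries. Sqle, squalene epoxidase, rose from 16.2, 48.5 and 12.6 CPM to 170, 202 and 182 CPM in liver and from 107 to 111 CPM to 142 to 180 CPM in LI, a difference of 2.55 ± 0.44 (0.00303). Dhcr7, which makes cholesterol from its last precursor, fell in LI and differed by 1.30 ± 0.27 (0.00731). Scd1, the main stearoyl-CoA desaturase of liver, fell from 4223, 2940 and 2649 CPM to 21.7, 4.81 and 199 CPM in liver and from 58.4 to 82.8 CPM to 5.19 to 21.2 CPM in LI, a difference of -4.29 ± 0.72 (0.00266). Scd2, its paralogue, rose in liver from 11 to 16.5 CPM to 20.6 to 26.6 CPM and fell in LI from 970 to 1331 CPM to 280 to 735 CPM, a difference of 2.06 ± 0.31 (0.00153). Me1, malic enzyme, fell in liver from 215 to 366 CPM to 71.9 to 95.8 CPM and differed by -2.09 ± 0.32 (0.00173).

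Of 22 tested fatty acid oxidation and PPAR alpha genes, 12 fell in LI and 2 in liver, and 5 had a higher effect in liver and 2 a lower one. The 5 were 3 without BMT replicate 2, and the 2 were 0 without any of the BMT replicates. Acadm, the medium-chain acyl-CoA dehydrogenase, was at 553, 418 and 241 CPM in BM livers and 564, 645 and 420 CPM in BMT livers, and fell from 167, 165 and 176 CPM to 73.5, 69.8 and 77.9 CPM in LI. The liver groups overlapped, and the difference was 1.68 ± 0.35 (0.00743). Among 29 nuclear subunits of the respiratory chain 0 were called by edgeR and 0 by DESeq2, with 1 at an unadjusted p of 0.05, and among 13 mitochondrial protein genes the counts were 0, 0 and 2. Without the mouse term 1 gene of each list was called, with TMM within each tissue 1 mitochondrial gene (mt-Nd3, adjusted p 0.0486), and on lane L002 alone 3 mitochondrial genes. The smallest p values in these lists belonged to Ndufa1 (0.58 ± 0.23, adjusted p 0.0905) and mt-Nd3 (-0.75 ± 0.25, 0.0522), followed by Ndufv2 (-0.45 ± 0.25, 0.21) and mt-Co2 (-0.41 ± 0.17, 0.113). Of 31 ribosomal protein genes, Rps2 alone was called (-0.72 ± 0.22, 0.0388), with an adjusted p above 0.05 in 5 of the 6 fits that left out a mouse, and Rpl27 differed by -0.44 ± 0.19 (0.123).

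Of 17 tested genes of tryptophan and amino acid catabolism, 5 had a higher effect in liver and 4 a lower one, and the 5 were 3 without BM replicate 2 or BMT replicate 2. Urea cycle genes went both ways, through falls of Otc, Cps1 and Nags and rises of Arg1 and Ass1 in LI. Otc, ornithine transcarbamylase, was at 497 to 850 CPM and 383 to 496 CPM in liver and fell from 16.1, 14.2 and 16.2 CPM to 0.706, 0.576 and 0.712 CPM in LI, a difference of 3.83 ± 0.32 (5.89e-05). Cps1, the first enzyme of the cycle, fell in LI from 11 to 15.9 CPM to 0.275 to 1.80 CPM and differed by 4.05 ± 0.62 (0.00161). Ttr, the thyroid hormone carrier, fell in LI from 17.0 to 19.6 CPM to 0.510 to 0.807 CPM and differed by 3.93 ± 0.38 (0.000143). Ido2, a tryptophan-degrading enzyme, rose in LI from 0.0361 to 0.0924 CPM to 2.23 to 2.67 CPM and in liver from 37.9 to 53.8 CPM to 66.9 to 78.1 CPM, a difference of -4.62 ± 0.40 (7.17e-05). Ido1, an enzyme of the same step that interferon gamma induces, was at 56.2 to 140 CPM in BM LI and 814 to 1179 CPM in BMT LI. It had 0 counts in all 6 livers, so no difference was tested.

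**Figure D5:**
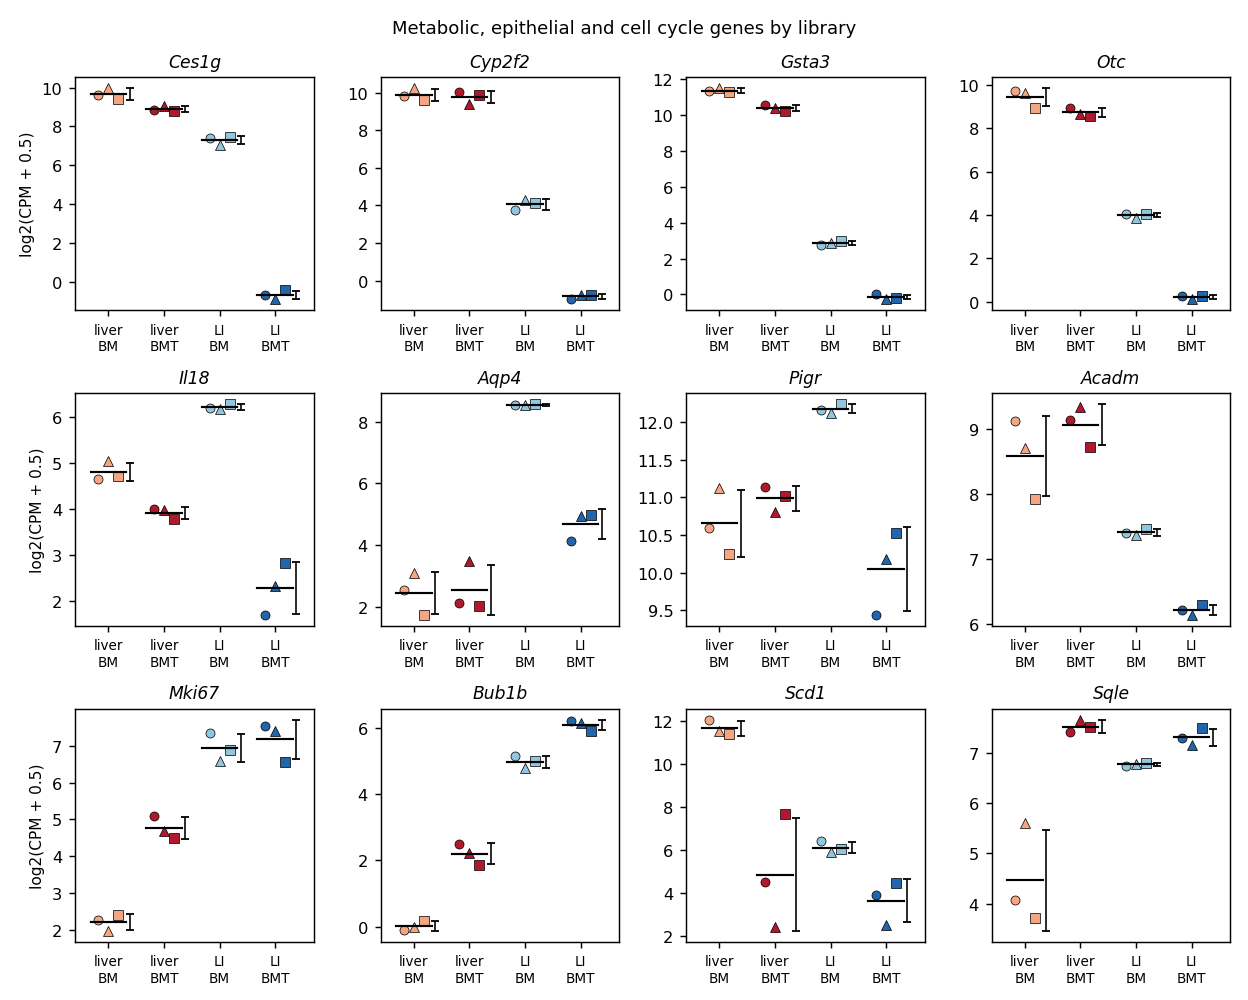
Level of 12 genes in each library as log2(CPM + 0.5), drawn as in the plot of immune genes. Ces1g, Cyp2f2, Gsta3, Otc, Il18, Aqp4, Pigr and Acadm fall in LI, while Mki67, Bub1b and Sqle rise most in liver and Scd1 falls in both.

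Cell division genes rose in both tissues from very different starting levels. Of 24 tested, 22 rose in LI and 15 in liver, 10 had a higher effect in liver and 3 (Mcm3, Mcm7 and Pcna) a lower one. Those 3 are genes of DNA replication, but so is Mcm6, which was among the 10. The count of 10 was 6 without BMT replicate 1, and the count of 3 was 0 without BM replicate 1, BM replicate 2 or BMT replicate 2 and 1 without BMT replicate 1. Mki67, a marker of cycling cells, rose from 4.29, 3.40 and 4.81 CPM to 33.8, 25.0 and 22.3 CPM in liver and was at 162, 95 and 119 CPM and 187, 170 and 94.5 CPM in LI, a difference of 2.44 ± 0.25 (0.000196). Bub1b, a mitotic checkpoint kinase, rose in both and differed by 1.86 ± 0.30 (0.00199). T cell transcripts rose in the same BMT livers, to the summed levels given above, and their part in the division genes was not tested.

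Stress and death genes were called in both directions, beside 13.7% higher and 10.4% lower over all genes. In the p53 and unfolded protein lists the shares called were near or below those. Phlda3, a p53 target, fell from 52.8, 31.6 and 47.9 CPM to 11.2, 21.1 and 14.9 CPM in liver and rose from 1.08 to 1.2 CPM to 2.47 to 3.00 CPM in LI, a difference of -2.72 ± 0.30 (0.000285). Btg2, another p53 target, fell in LI from 621 to 731 CPM to 233 to 254 CPM and differed by 2.27 ± 0.31 (0.000891). Over the 20 tested p53 targets, 2 were higher and 3 lower, with 1 to 3 higher when 1 mouse was left out (1 without BM replicate 2 or BMT replicate 1). Gsdme, a pore-forming gasdermin, fell in LI from 34.2 to 43.0 CPM to 6.26 to 9.18 CPM and was at 22.9 to 27.5 CPM and 21.8 to 25.4 CPM in liver, a difference of 2.30 ± 0.24 (0.00021). Of 17 tested cell death genes, 5 were lower in liver (among them Casp8, Gsdmd, Mlkl and Zbp1), a count between 2 and 9 with 1 mouse left out: 9 without BM replicate 1, 2 without BM replicate 2 or BMT replicate 1, and 3 without BMT replicate 2 or 3. Among 22 genes of the unfolded protein and amino acid response, Trib3 (-2.67 ± 0.70, 0.0217) and Xbp1 (0.93 ± 0.27, 0.0314) were called, and both calls were lost without BM replicate 2 and without BMT replicate 2, with adjusted p of 0.0736 and 0.0836 for Trib3 and 0.0696 and 0.129 for Xbp1. Trib3 was also lost without BMT replicate 3 (0.059) and without the mouse term (0.0667), and Xbp1 without BM replicate 1 (0.0704) and BMT replicate 1 (0.0986).

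Genes listed for epithelial defence changed in both tissues. Of 20 listed antimicrobial and oxidase genes, 4 were tested, and 3 had a higher effect in liver (Pigr, Pglyrp1 and Slpi). Of the 4, 2 rose in liver, and 2 rose and 2 fell in LI. Of 12 tested alarmins and repair genes, 7 rose and 1 fell in LI, and 2 had a higher effect in liver (Il18 and Anxa1) and 2 a lower one (Il33 and Il1b). The lower count was 4 without BM replicate 1 or the mouse term and 1 without BM replicate 2, BM replicate 3, BMT replicate 1 or BMT replicate 2, and the higher count was 1 without BM replicate 2, without the mouse term and on lane L002 alone. Pigr, which carries IgA to the lumen and bile, was at 1212 to 2238 CPM and 1786 to 2249 CPM in liver and fell from 4567, 4465 and 4838 CPM to 691, 1160 and 1477 CPM in LI, a difference of 2.45 ± 0.40 (0.00248). Il18, a cytokine stored in epithelium, fell in LI from 73.4, 71.4 and 77.7 CPM to 2.71, 4.49 and 6.60 CPM and in liver from 24.6 to 32.3 CPM to 13.2 to 15.5 CPM, a difference of 3.17 ± 0.34 (0.000256). The alarmin Il33 rose in LI from 0.289 to 0.693 CPM to 1.84 to 8.28 CPM and differed by -3.29 ± 0.67 (0.00711). Pglyrp1, which binds bacterial peptidoglycan, rose in both tissues and differed by 2.99 ± 0.66 (0.0101). In bulk liver Pglyrp1 went from 0.139 to 0.380 CPM to 14.7, 5.96 and 6.47 CPM, and which cells held it was not tested.

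Of 12 tested brush border and transport genes, 9 fell in LI and 2 in liver, and 6 had a higher effect in liver and 1, the carbonic anhydrase Car1, a lower one that was lost with all 18 libraries. The water channels Aqp4 and Aqp1 fell in LI from 370 to 382 CPM to 17.0 to 30.8 CPM and from 76 to 80.8 CPM to 8.90 to 11.2 CPM, with differences of 4.01 ± 0.47 (0.000374) and 2.89 ± 0.23 (5.46e-05). Car4, a membrane-bound carbonic anhydrase, had 0 counts in BM livers and 142 in BMT livers, at least 50.2-fold higher, and rose in LI from 235 to 272 CPM to 352 to 662 CPM, with a fitted difference of 8.07 ± 0.80 (0.000436). Some markers used to check the tissue also changed in LI. Slc37a2, a sugar phosphate exchanger, fell in LI from 1628, 1504 and 1916 CPM to 3.80, 37.6 and 76 CPM and differed by 6.80 ± 0.87 (0.000616), and Anpep, an aminopeptidase, differed by 2.08 ± 0.31 (0.00143).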

How the data were processed

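Per the labels' protocols, RNA came from TRIzol extraction and poly(A) selection into TruSeq Stranded mRNA libraries. The values are the authors' deposited raw counts of reads per gene. Per the submitters' processing notes, the tools were FastQC 0.11.9, STAR 2.7.0e and featureCounts 1.6.3 with GRCm38.p5. The annotation release and strand option of the counting are not stated in any source read here. Thus reads of overlapping or antisense genes, and of close paralogues such as the Ces1, Saa, Gsta, Gbp and MHC genes, may be shared. Of 53379 gene IDs, 53274 matched a symbol, and unmatched IDs held 0.00257% of counts.

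The difference was tested with edgeR 4.0.16 (R 4.3.3), a quasi-likelihood F-test of the tissue by treatment term with the mouse number as a block, TMM scaling over 12 libraries, genes passing filterByExpr in both tissues, and Benjamini-Hochberg adjustment over all 12459 genes, with calls at an adjusted p of 0.05. Values in brackets after a difference are these adjusted p values. The ± value is an SE worked back from the test, the absolute log2 value over the square root of its F statistic. Where a group is at or near 0 counts it understates the uncertainty of the size. Each tissue was also fitted alone, without a block. No p was given for lists. The mouse pairing comes from the numbers in the sample descriptions. Deviations from the group means correlated at 0.061, 0.006 and -0.043 between tissues of the same BM mouse and at 0.187, 0.080 and 0.231 for BMT mice. Between tissues of different mice the correlations were -0.085 to 0.075 for BM and -0.200 to 0.038 for BMT. The same-mouse values thus stood above the others in the BMT group but not in the BM group. Chi-square over degrees of freedom was 8.97 to 168 between replicate libraries, so none was a repeat of another. On simulated counts for 12459 genes, the test of the difference recovered 18% of genes changed 2-fold and 87% of genes changed 4-fold, with 7 false among 112 calls. The simulation changed 100 genes at each fold, in BMT livers alone, and held no mouse effect. The adjustment over all genes depends on the number changed, and the real data gave 3001 calls. The simulated rates therefore need not hold for these data.

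The gene lists (41 lists, 790 genes) and the choice of this comparison were made with earlier results of these data known. Genes were named by a rule on size of difference, pattern and smallest p within each list, with a mean of at least 5 CPM for the first, which named 101 genes, 91 of them called. Genes named beyond it, among them the promoter examples Isg15, Ifit1, Cxcl10, B2m, Irf1, Icam1 and Steap4, were chosen after their values were seen. Some genes that the lists and the rule hold are counted but not reported here by name. Alternatives were RLE factors, TMM within each tissue, mitochondrial genes left out, no low-count filter, DESeq2 1.42.0, limma 3.58.1 voom, no mouse block, all 18 libraries, lane L002 alone and each mouse left out. Counting intervals are at 95% and, like the floor of 3 counts over a group, cover counting error only.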

Additional observations from a re-analysis of the deposited data

Results flagged for a closer look

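The effect of T cells in liver and in LI epithelium differed by edgeR's test of the difference itself, with 1705 genes higher and 1296 lower in liver. The named genes that passed it, leaving out those not reported here, are given with the log2 difference, liver minus LI. The widest differences with a higher effect in liver belonged to Scara5 (9.83), Ces1g (9.46), Ces1d (9.41), Lrg1 (8.52), Cyp4b1 (8.29), Car4 (8.07), Cyp2f2 (7.92), Itih2 (7.7), Cd177 (7.39), Saa2 (7.08), Slc37a2 (6.8), Saa1 (6.65), Il1r1 (6.29) and Saa3 (5.96). An intermediate higher effect was found for Vdr (4.3), Cps1 (4.05), Cyp39a1 (4.03), Aqp4 (4.01), Ttr (3.93), Ccl6 (3.91), Otc (3.83), Cd14 (3.34), Il18 (3.17), Gsta3 (3.07), Pglyrp1 (2.99), Aqp1 (2.89), Lyve1 (2.69), Col1a1 (2.55), Sqle (2.55) and Acox2 (2.5). The smaller called differences with a higher effect were those of Cyp27a1 (2.48), Pigr (2.45), Mki67 (2.44), Tfpi (2.42), Gsdme (2.3), Btg2 (2.27), Anpep (2.08), Scd2 (2.06), Socs3 (2.03), Slc40a1 (1.92), Bub1b (1.86), Nr1i3 (1.84), Col1a2 (1.83), Acadm (1.68), Cfb (1.58), Slc10a2 (1.39), Dhcr7 (1.3), Ctss (1.24), Slco2b1 (1.21), Abcc3 (1.03) and Xbp1 (0.93). The widest differences with a lower effect in liver belonged to S1pr1 (-10.84), Ccl7 (-8.52), Icam2 (-7.51), Cd4 (-7.42), Rasgrp2 (-7.0), S100g (-6.79), Ifitm1 (-6.63), Cd5 (-6.46), Gzma (-6.17), Itgal (-5.59) and Zap70 (-5.14). An intermediate lower effect was found for Ido2 (-4.62), Rsad2 (-4.48), Krt23 (-4.47), Gsta2 (-4.33), Thy1 (-4.06), Selplg (-4.03), Ighm (-3.71), Ccr2 (-3.68), Nkg7 (-3.5), Plat (-3.46), Prom1 (-3.44), Ecm1 (-3.4), Il33 (-3.29), Gbp10 (-3.13), S100a9 (-3.12), H2-T24 (-2.89), Phlda3 (-2.72) and Trib3 (-2.67). The smaller called differences with a lower effect were those of Rtp4 (-2.38), Me1 (-2.09), Slc51b (-2.05), Nlrc5 (-1.97), C2 (-1.83), Psme2 (-1.5), Psma5 (-1.38), Psmb3 (-0.99) and Rps2 (-0.72). Several of the widest fitted values rest on a group at or near 0 counts and are not exact sizes. LI of BM mice had 0 counts for S1pr1, Icam2 and Cd5, 1 for Ccl7 and Rasgrp2 and 2 for Cd4, and livers of BM mice had 0 for Car4. LI of BMT mice had 3 counts for Ces1d and 1 for Itih2. The mean within-mouse differences of log2(CPM + 0.5) were smaller, at -4.60 for S1pr1, -1.69 for Icam2, -2.25 for Cd5, -3.45 for Ccl7, -2.51 for Rasgrp2, -3.82 for Cd4, 1.99 for Car4, 5.90 for Ces1d and 3.17 for Itih2. In LI of BMT mice, mean levels were also low for Scara5 (0.0807 CPM), Ces1g (0.131), Lrg1 (0.0809), Cyp4b1 (0.0779) and Cyp2f2 (0.0572). Scara5 was at a mean of 0.139 CPM in livers of BM mice as well. The within-mouse differences of these genes were 5.42, 7.21, 6.03, 5.60 and 4.79.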

How the results depend on the processing

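No gene called for the difference changed sign among the calls of any alternative, and the calls shared with the reported ones ranged from 57.4 to 99.8% of them. The counts higher and lower, 1705 and 1296, were 1703 and 1299 with RLE factors, 1613 and 1367 with TMM within each tissue, 1735 and 1300 by DESeq2, 1709 and 1356 by limma voom, 2319 and 1591 with no low-count filter, and 1787 and 1446 with all 18 libraries. Without the replicate block they were 1778 and 1494. With 1 mouse left out they ranged from 988 to 1700 and from 759 to 1221. In liver, leaving out 1 library gave 463 to 1526 genes that rose and 111 to 1049 that fell, and DESeq2 gave 767 that fell against 473. A replicate block on the titles' numbers gave 1125 and 505 in liver and 2637 and 2730 in LI. Nr1h4, which was not called, turned positive at 0.0872 without BM replicate 2, 0.0230 without BMT replicate 1 and 0.0435 without BMT replicate 3, within a range of -0.1561 to 0.0872 over the mice left out. The within-mouse difference of S100a9, 1.2111 at a pseudocount of 0.5, reversed to -0.6432 at 0.1. The cause was not tested. With 3 mice a group, 4-fold differences were recovered far more often than 2-fold ones on simulated data. Those data held no mouse effect and few changed genes, so the rates need not hold here.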
